A study of Mus musculus with 16 samples.

Results

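Receptors for appetite peptides were followed in the mouse hypothalamus, as the 10 genes Mc3r, Mc4r, Npy1r, Npy2r, Npy5r, Ghsr, Hcrtr1, Hcrtr2, Mchr1 and Htr2c out of 47069 genes in the count table. They were taken by gene name, whatever their values, and all 10 passed the filter on low counts. The mice were of the inbred strain C57BL/6N and ate 1 of 8 diets. These diets crossed 60% or 20% of energy as fat with 1%, 2.5%, 5% or 20% of energy as protein. RNA from dissected hypothalamus was sequenced in 2 libraries per diet, 16 in all, so 4 libraries cover each protein level and 8 cover each fat level. The labels carry no transgene, mutant allele or drug, and the mice's age and the number of animals behind a library are not given in the sources used here. Diets with 1% and 2.5% protein carry codes with one beginning and those with 5% and 20% another, so a comparison across that line cannot be told apart from whatever the code stands for.

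These receptors are G protein-coupled proteins on hypothalamic neurons through which peptides, and in the case of Htr2c serotonin, raise or lower feeding. Neurons of the arcuate nucleus send out melanocortins cut from the Pomc precursor, which bind Mc3r and Mc4r and lower intake through Mc4r. Neighbouring neurons release Agrp, which blocks those receptors, and neuropeptide Y, which raises intake. Orexin (Hcrt) and melanin-concentrating hormone (Pmch) come from the lateral hypothalamus, and ghrelin reaches the brain from the stomach.

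Library totals ran from 17731242 to 18511818 counts, and the receptors held between 54 counts (Mc4r) and 2161 counts (Htr2c) in a library. Values are CPM, each gene's count scaled to library size after TMM normalisation. Some libraries stood apart. In 3 of the 4 libraries at 1% protein (the pair with 60% fat, and replicate 1 with 20% fat) mitochondrial genes held 1.54% to 1.78% of the counts, against 2.19% to 3.20% in the other 13, and longer genes stood lower in these 3 (Spearman correlation across 16646 genes of -0.261 to -0.169 with gene length). The remaining library at 1% protein, replicate 2 at 20% fat, had the highest mitochondrial share, a correlation of 0.166 with length, and markers of cortical and hippocampal neurons at log2 0.86 above the mean of all libraries. Replicate 2 of 20% fat with 2.5% protein held the same markers at 1.57, and the other 14 libraries lay between -0.38 and 0.09. A fit without the 1% protein library that held these markers leaves only the 3 libraries of low mitochondrial share at 1% protein. Protein level and that share cannot be told apart in such a fit. The correlation with gene length varied at the other protein levels too. At 20% protein it was 0.233 and -0.0491 with 60% fat and -0.0952 and 0.315 with 20% fat. It ran from -0.136 to 0.186 at 5% protein and from 0.0371 to 0.0792 at 2.5%.

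Levels of different receptors were compared per kilobase of annotated exon. Htr2c, the serotonin 2C receptor, had the highest level with 11.8 ± 0.75 CPM per kilobase (SD, n = 16). Mchr1, the receptor for melanin-concentrating hormone, followed with 7.27 ± 0.96, then Npy2r with 5.59 ± 0.84, Npy1r with 5.07 ± 0.68 and the orexin receptor Hcrtr1 with 4.57 ± 0.50. Mc3r and Npy5r both stood at 2.27, with SDs of 0.36. Mc4r (1.47 ± 0.27), Ghsr (1.46 ± 0.29) and Hcrtr2 (1.08 ± 0.23) closed the order. Neighbours in this order overlapped in their ranges over the libraries, except that all 16 Htr2c values lay above every Mchr1 value and all 16 Hcrtr1 values above every Mc3r value.

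**Figure D1:**
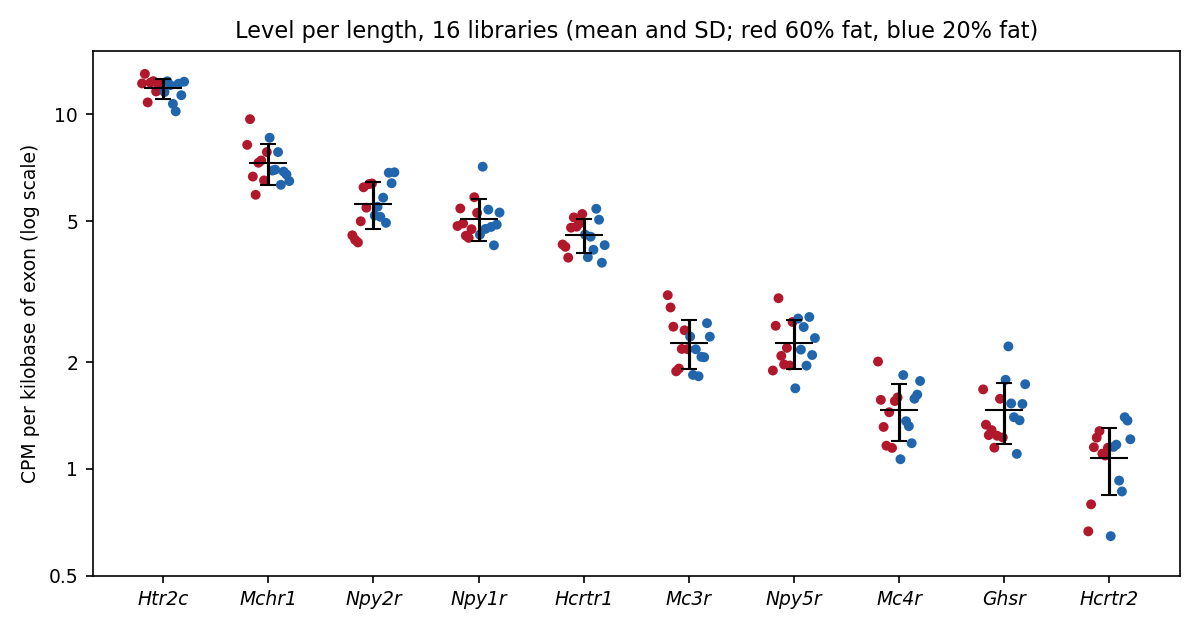
Level of each receptor in CPM per kilobase of exon (log axis) in 16 libraries, with points red for 60% fat and blue for 20% fat, and the mean and SD in black. Htr2c at 11.8 stands above the rest, and a gap separates Hcrtr1 at 4.57 from Mc3r at 2.27.

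That order depends on the length used. Divided by the length in the deposited table, which for most genes is the whole span with introns, Mchr1 ranked 1 and Htr2c ranked 9, because Htr2c spans 234765 bases of chromosome X (146962513 to 147197277, GRCm38) but has 9328 exonic bases. Between libraries, Htr2c varied least, with a coefficient of variation of 6.34%, and Hcrtr2 most, with 21.5%. Counting noise alone would give 2.22% and 9.07%.

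The comparison of 1% with 20% protein asks how the receptors stood at the lowest and highest protein level, over both fat levels. Npy2r and Hcrtr2 fell, and none of the 10 rose. Npy2r, a neuropeptide Y receptor known as a presynaptic brake on the neurons that release the peptide, was 1.33-fold lower at 1% protein. Hcrtr2, the orexin receptor that also serves wakefulness, was 1.48-fold lower. The other 8 receptors differed by log2 -0.09 to 0.28 and did not pass the test, the quasi-likelihood test of edgeR at 0.05 after Benjamini-Hochberg adjustment over 16646 genes. Against the 2 receptors lower, 6.01% of all genes tested were lower and 8.26% higher in this comparison, 14.3% in either direction. The median change of the 10 was log2 0.01, and that of all genes was 0.00; the median size of change was 0.08 for the receptors and 0.16 for all genes. In tissue RNA, fewer cells of a type and less RNA per cell cannot be told apart, and the labels do not state whether each library came from its own animals, so a p-value here measures only the spread between samples that may be technical repeats.

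**Figure D2:**
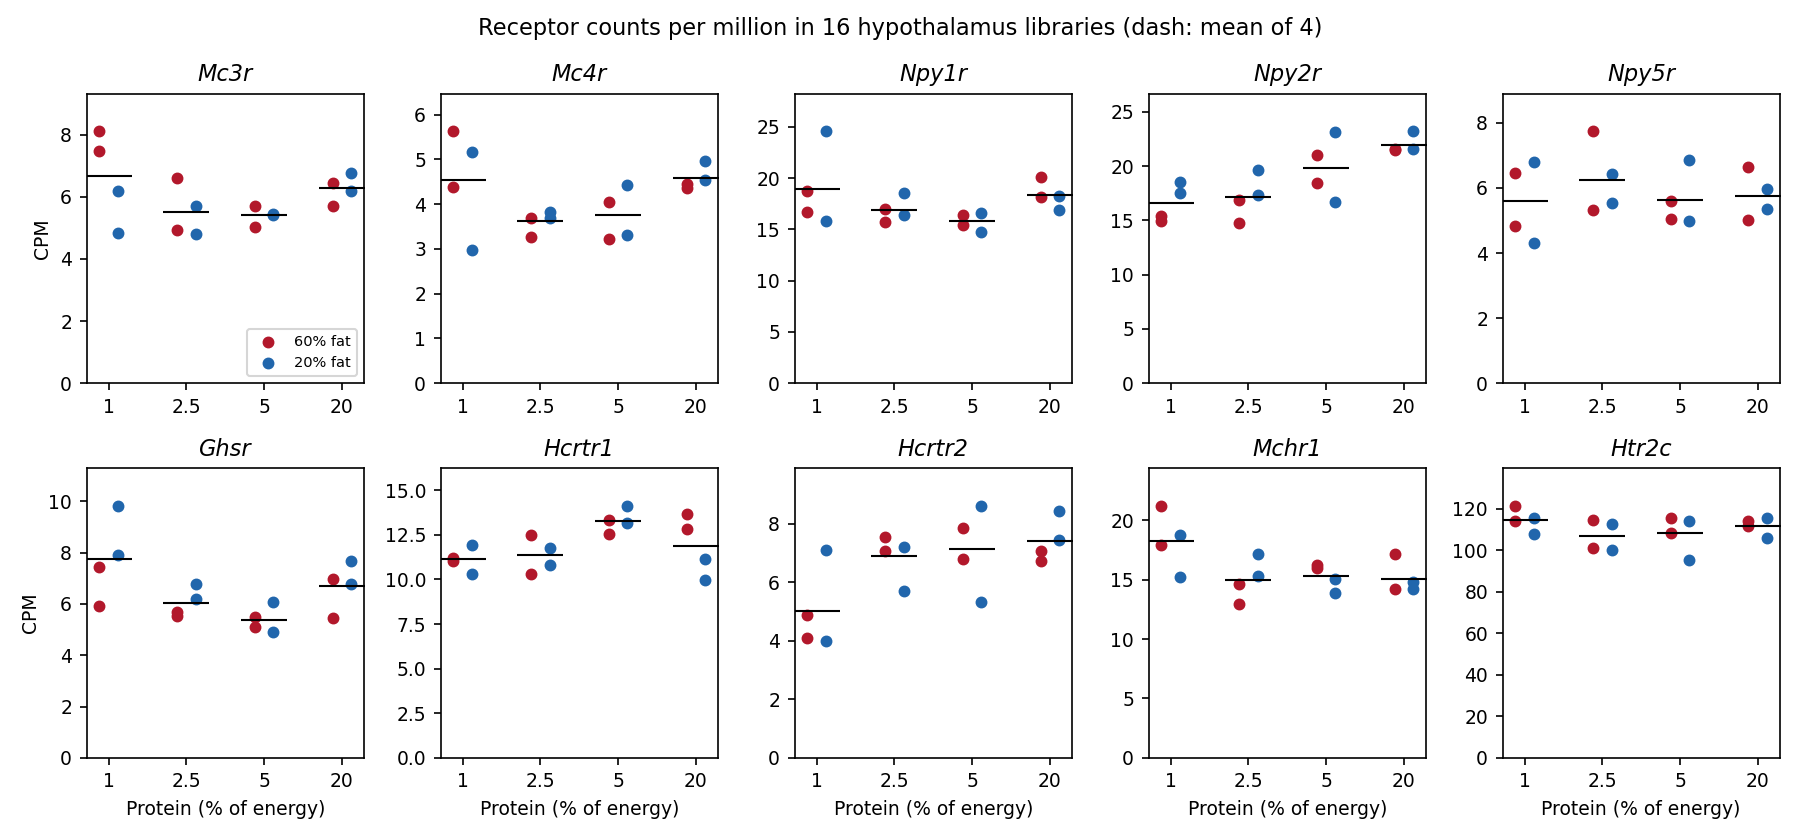
CPM of each receptor in each library against dietary protein (evenly spaced levels, axes from 0), red for 60% fat and blue for 20% fat, with the mean of the 4 libraries at each level as a dash. Npy2r steps down from 21.98 at 20% protein to 16.6 at 1%, and Hcrtr2 is low in 3 of the 4 libraries at 1%.

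Among the melanocortin receptors, neither passed the test. Mc3r (chromosome 2, 172248492 to 172251114, a single exon) had 8.10 and 7.48 CPM at 1% protein with 60% fat, 6.19 and 4.83 at 1% with 20% fat, and between 5.71 and 6.76 in the 4 libraries at 20% protein. Both libraries at 1% protein and 60% fat were thus above every library at 20% protein, while at 20% fat 1 of the pair lay within that range and 1 below it. The change was log2 0.36 ± 0.17 (SE) at 60% fat and -0.23 ± 0.17 at 20% fat, a difference of 0.59 ± 0.24 with an adjusted p of 0.623 by edgeR's quasi-likelihood test, and 0.0294 before adjustment, where 7.84% of all genes had an unadjusted p under 0.05. No receptor passed for that difference and neither did any other gene (0.0%), with 1 of 10 at an unadjusted p under 0.05 by edgeR's quasi-likelihood and likelihood ratio tests and 0 by DESeq2.

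Mc4r, the receptor whose loss gives obesity (chromosome 18, 66857704 to 66860506), had 2.99 to 5.63 CPM at 1% protein and 4.36 to 4.96 at 20%. The 4 libraries at 1% were spread on both sides of the narrow group at 20%, and the change was log2 -0.01 ± 0.16. Its counts were the lowest of the 10, 54 to 100 per library, where counting noise alone gives a coefficient of variation of 11.5%. The ligand side moved: Pomc, the melanocortin precursor, fell by log2 1.91 ± 0.19 with an adjusted p of 2.67e-05, from 47.5 to 12.7 CPM. Agrp rose by 0.59 ± 0.13 (adjusted p = 0.0103, edgeR's quasi-likelihood test), from 4.62 to 6.94 CPM, although its annotated span overlaps 2 coding genes, Ripor1 and Ctcf, and its counts are uncertain to that extent.

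Npy2r gave the clearest difference. It lies on chromosome 3 (82538383 to 82548084, minus strand, 2 exons), and no annotated gene overlaps it. At 1% protein it had 15.4 and 15.0 CPM with 60% fat and 17.5 and 18.6 with 20% fat, and at 20% protein 21.5 and 21.6 with 60% fat and 21.6 and 23.2 with 20% fat. The groups did not overlap: every library at 1% lay below every library at 20%. Npy2r was the only receptor of the 10 with that separation, which 6.35% of all genes showed downwards and 7.4% upwards. The change was log2 -0.41 ± 0.10 with an adjusted p of 0.0124 by edgeR's quasi-likelihood test, and it passed in 25 of 25 alternatives, with adjusted p from 0.00223 to 0.043. It remained at -0.45 after a trend with gene length was removed, and was also -0.45 without the libraries that held cortical markers. None of these alternatives separates protein level from the beginning of the diet code.

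Npy2r stood between these ends at the middle protein levels, with 19.9 ± 2.84 CPM at 5% and 17.2 ± 2.04 at 2.5% (SD, n = 4 each). Against 20% protein, 2.5% gave log2 -0.36 ± 0.10 (adjusted p = 0.397) and 5% gave -0.15 ± 0.09 (adjusted p = 1.0), neither of which passed edgeR's quasi-likelihood test. At 2.5% protein all 4 libraries again lay below all 4 at 20%. Between 1% and 2.5% protein, whose diet codes begin alike, the change was log2 -0.05 ± 0.10 (adjusted p = 0.798, edgeR's quasi-likelihood test). The comparisons of 1% and of 2.5% with 20% cross the line between code beginnings, and that of 5% with 20% does not. Along the straight line over protein percent that the study's design text gives, scaled as the change from 20% to 1%, Npy2r had -0.37 ± 0.09 with an adjusted p of 0.162. That slope passed with DESeq2 (0.0367), with edgeR's likelihood ratio test (0.0368) and with protein on a log2 scale (0.00964), and was -0.19 (adjusted p = 0.983) with a term for the beginning of the diet code.

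The other neuropeptide Y receptors did not move with Npy2r between 1% and 20% protein. Npy1r (chromosome 8, 66697192 to 66706792), a receptor through which neuropeptide Y raises feeding, had 16.7, 18.7, 15.8 and 24.6 CPM at 1% and 16.9 to 20.2 at 20%. The 24.6 was replicate 2 at 20% fat, the library with cortical markers, and the change of log2 0.04 ± 0.11 turned to -0.13 without the libraries that held those markers. Npy5r, its neighbour on the other strand (66679965 to 66688128), changed by -0.03 ± 0.17, with 4.31 to 6.78 CPM at 1% and 5.00 to 6.63 at 20%. Npy, the ligand, rose by log2 2.17 ± 0.20 (adjusted p = 1.1e-05, edgeR's quasi-likelihood test), from 17.3 to 80.3 CPM, with no overlap between the groups. Pyy, whose peptide also binds these receptors, had 0 to 3 counts per library and did not pass the filter on low counts.

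Hcrtr2 lies on chromosome 9 (76225880 to 76323856, minus strand), with 6162 exonic bases in a span of 97977. At 1% protein it had 4.11 and 4.90 CPM with 60% fat and 3.98 and 7.11 with 20% fat. At 20% protein it had 6.72 and 7.07 with 60% fat and 8.43 and 7.47 with 20% fat. The groups overlapped through a single library, the 7.11 of replicate 2 at 20% fat, and the other 3 libraries at 1% were the lowest of all 16. The change was log2 -0.56 ± 0.18 with an adjusted p of 0.044 by edgeR's quasi-likelihood test.

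The call on Hcrtr2 was less steady than that on Npy2r. It was lost in 13 of 25 alternatives, among them removal of the gene length trend (-0.50, adjusted p = 0.0517), the 8 diets as separate groups (-0.57, 0.0527) and 11 of 16 fits that left out 1 library. Without the library at 7.11 the change was -0.79 with an adjusted p of 0.00149. In that fit 33.0% of all genes passed, against 14.3% with all 16 libraries. It left only the 3 libraries of low mitochondrial share at 1% protein, so protein level cannot be told apart from that share there. The low mitochondrial share and the lowest standing of long genes occurred in the same 3 libraries in which Hcrtr2 was low. The highest correlations with gene length, 0.315 and 0.233, were in libraries at 20% protein, the other side of this comparison. The part of these traits in the result was not tested beyond the removal of the length trend. An antisense gene, Gm27234, overlaps Hcrtr2 and is listed at 0 in every library. The astrocyte marker Gfap and the microglia marker P2ry12 are also at 0 in every library, so a 0 may not mean absence of the RNA.

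**Figure D3:**
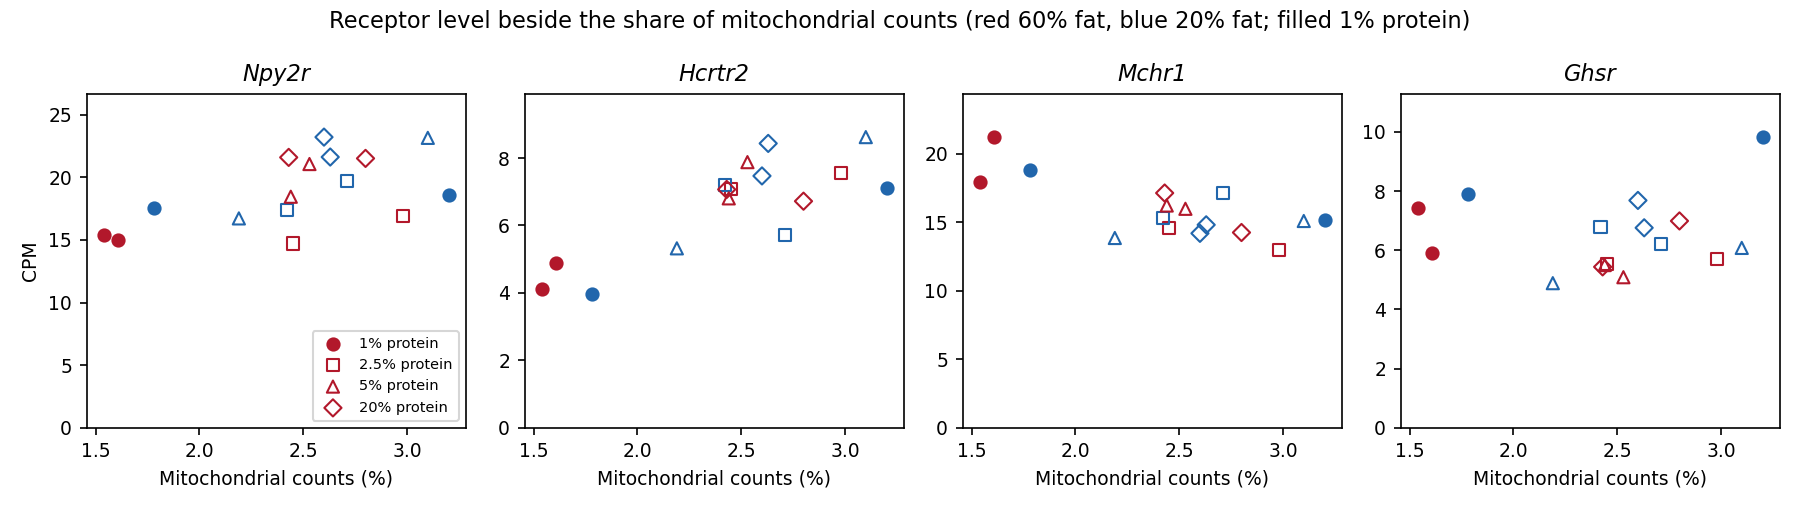
CPM of Npy2r, Hcrtr2, Mchr1 and Ghsr (axes from 0) against the percent of counts from mitochondrial genes in each library, with filled circles for 1% protein, other shapes for the other levels, red for 60% fat and blue for 20% fat. The 3 libraries at 1.54% to 1.78% are those with the lowest Hcrtr2, at 3.98 to 4.90 CPM, and the highest Mchr1, at 17.95 to 21.2.

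Hcrtr1, the other orexin receptor (chromosome 4, 130130217 to 130139359, minus strand), had 10.3 to 11.9 CPM at 1% protein and 9.95 to 13.7 at 20%. The groups overlapped, with a change of log2 -0.09 ± 0.10. Its mean was highest at 5% protein, where the 4 libraries ran from 12.6 to 14.1 CPM, all above the 4 at 1%. The step from 5% to 1% was -0.26 ± 0.10, with an adjusted p of 0.127 by edgeR's quasi-likelihood test. Orexin itself, Hcrt, had 158 CPM at 1% and 125 at 20% protein (0.34 ± 0.16, adjusted p = 0.157), which did not pass.

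Mchr1 (chromosome 15, 81235499 to 81238964) had 17.95 and 21.2 CPM at 1% protein with 60% fat and 18.8 and 15.2 with 20% fat, against 14.3 and 17.1 with 60% fat and 14.8 and 14.2 with 20% fat at 20% protein. Of the libraries at 1%, 3 lay above all 4 at 20%, and the fourth was again replicate 2 at 20% fat. The change of log2 0.28 ± 0.10 had an adjusted p of 0.0826 by edgeR's quasi-likelihood test. It passed without that library (0.35, adjusted p = 0.0132), in a fit where 33.0% of all genes passed. Mchr1 also passed without both libraries that held cortical markers (0.34, adjusted p = 0.00815). It fell to 0.19 (adjusted p = 0.196) after removal of the gene length trend. With both those libraries left out, Npy2r and Hcrtr2 were lower and Mchr1 higher, 3 of 10 receptors, in a fit where 34.8% of all genes passed. The fits without these libraries left only the 3 libraries of low mitochondrial share at 1% protein. Protein level cannot be told apart from that share in them. Pmch, the ligand of Mchr1, had 102 CPM at both levels, with a span that overlaps the coding gene Parpbp.

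Htr2c, through which serotonin lowers feeding, kept within a narrow range. It had 108 to 121 CPM at 1% protein and 106 to 115 at 20%, groups that overlapped, and a change of log2 0.04 ± 0.06. Its span holds 8 annotated genes of small RNAs and no coding gene. Over all 16 libraries the lowest value was 95.1 CPM and the highest 121. Tph2, the enzyme of serotonin synthesis in the brain, had 3 to 29 counts in 15 libraries and 92 in replicate 1 of the 60% fat, 5% protein diet, and differed by log2 0.25 ± 0.85 between 1% and 20% protein. Summed markers of choroid plexus, a tissue rich in this receptor, ran from 227 to 486 CPM at 1% protein and from 301 to 345 at 20%, with 1 of 9 tested markers higher and 1 lower and Kcnj13 at 0 in every library; their part in the level of Htr2c was not tested.

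**Figure D4:**
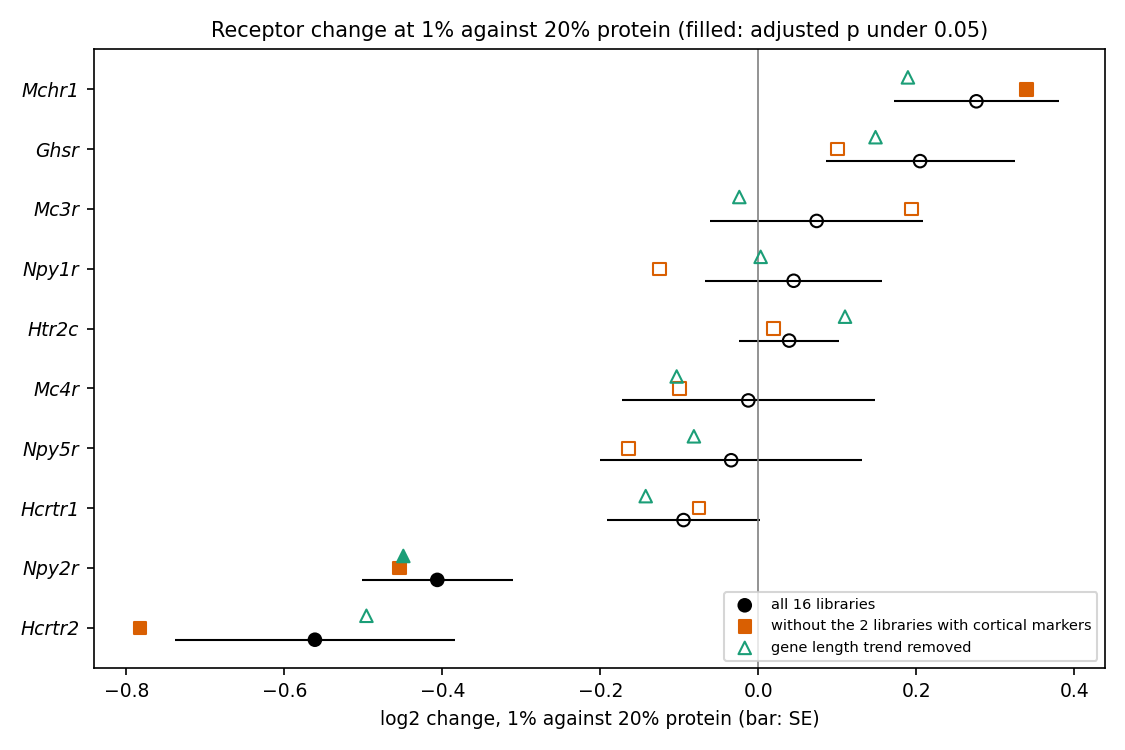
Change in each receptor at 1% against 20% protein on the log2 scale (bars: SE of the fit to 16 libraries), in that fit, without the libraries that held cortical markers, and with the gene length trend removed; filled symbols passed at an adjusted p of 0.05. Npy2r is filled in all 3 fits, Hcrtr2 in 2 and Mchr1 in 1.

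Ghsr, the ghrelin receptor, was the receptor that rose between 5% and 1% protein. It lies on chromosome 3 (27371351 to 27378010) with 3 exon blocks. At 1% protein it had 7.43 and 5.91 CPM with 60% fat and 7.91 and 9.82 with 20% fat, and at 5% it had 5.09 and 5.50 with 60% fat and 4.89 and 6.08 with 20% fat. The lowest library at 1%, 5.91, lay just under the highest at 5%, 6.08, and the others did not overlap. Ghsr rose by log2 0.52 ± 0.12 (1.43-fold) with an adjusted p of 0.0232 by edgeR's quasi-likelihood test. It was the only receptor called in this comparison with all 16 libraries, 1 of 10 higher and 0 lower, where 2.46% of all genes were higher and 2.41% lower (4.87% in either direction).

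The rise in Ghsr passed in 20 of 25 alternatives, with adjusted p up to 0.0683 in the fits that left out 1 library and lost it. It was 0.49 (adjusted p = 0.0435) with the gene length trend removed. Without the libraries that held cortical markers it was 0.42 (0.0234), in a fit where 23.8% of all genes passed. Ghsr did not run evenly with protein. Its means were 6.72 CPM at 20% protein, 5.39 at 5%, 6.05 at 2.5% and 7.77 at 1%, so the comparison of 1% with 20% gave 0.20 ± 0.12 and an adjusted p of 0.252, and 0.10 (0.562) without the libraries that held cortical markers. The step from 20% to 5% was -0.31 ± 0.12 with an adjusted p of 1.0. Ghrl, the ghrelin gene, stood at 2.69 CPM at 1% and 2.79 at 5%.

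Other receptors between 1% and 5% protein had adjusted p from 0.106 upwards. Hcrtr2 had -0.51 ± 0.18, Npy2r -0.26 ± 0.10, Mc3r 0.29 ± 0.14, Npy1r 0.26 ± 0.11 and Mchr1 0.26 ± 0.10 on the log2 scale. Without the libraries that held cortical markers Npy1r stood at 0.09 (adjusted p = 0.441), while Hcrtr2 (-0.73, 0.0037), Mchr1 (0.32, 0.0168), Mc3r (0.41, 0.0224) and Npy2r (-0.31, 0.0335) passed edgeR's quasi-likelihood test. In that fit 23.8% of all genes passed, against 4.87% with all 16 libraries. At 1% protein it held only the 3 libraries of low mitochondrial share. Hcrtr2 (-0.66, 0.0402) and Npy2r (-0.37, 0.0214) also passed without replicate 1 of the 20% fat, 5% protein diet, where 4.18% of all genes did. With Ghsr and Hcrtr1, 7 of 10 receptors had an unadjusted p under 0.05 here, against 22.2% of all genes. Of the 7, 4 were higher at 1% and 3 lower with all 16 libraries, where 12.6% and 9.67% of all genes were. The likelihood ratio test also gave 4 higher and 3 lower, and DESeq2 gave 3 and 3. Only Hcrtr1 had groups that did not overlap, lower at 1%, as 4.56% of all genes did (4.9% in the higher direction). This comparison shares its libraries at 1% protein with the comparison above and is no separate support for it.

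The sequence before the start of Ghsr and Mchr1 is shown because these 2 receptors had the highest positive changes between 1% and 20% protein, and because their windows of 250 bases lie outside the RefSeq and GENCODE spans of the same gene, which those of Npy2r and Hcrtr2 do not. The bases are from RefSeq (GRCm38.p6), 5′ to 3′ along the plus strand, at chr3:27371101-27371350 for Ghsr and chr15:81235249-81235498 for Mchr1, with each CG pair in capitals.
Ghsr: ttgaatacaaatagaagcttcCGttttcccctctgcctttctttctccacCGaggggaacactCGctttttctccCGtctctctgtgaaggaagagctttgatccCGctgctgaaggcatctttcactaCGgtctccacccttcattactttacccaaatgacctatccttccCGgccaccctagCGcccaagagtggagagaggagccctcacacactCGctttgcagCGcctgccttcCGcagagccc
Mchr1: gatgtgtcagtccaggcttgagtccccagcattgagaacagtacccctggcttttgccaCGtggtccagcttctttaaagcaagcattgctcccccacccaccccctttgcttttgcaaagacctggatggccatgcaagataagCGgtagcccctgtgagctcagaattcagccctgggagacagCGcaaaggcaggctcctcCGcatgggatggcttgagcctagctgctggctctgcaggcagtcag
The Ghsr window holds 11 CG pairs and the Mchr1 window 4, and the median of 32851 such windows was 6. Of the 10 receptors, 9 had 11 windows in that table, and they were searched on both strands for AGAACA, a glucocorticoid receptor half-site, TGACG, a cyclic AMP response half-site, and TATAAA. The first stood in the windows of Npy5r and Mchr1, 191 and 216 bases before the start, and the others in none, where 16.1%, 17.8% and 12.4% of all windows held the 3 motifs.

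The smaller steps of protein called no receptor with all 16 libraries. Between 1% and 2.5% protein 0 of 10 passed edgeR's quasi-likelihood test, where 2.32% of all genes did. By that test 3 had an unadjusted p under 0.05, as 22.1% of all genes did. DESeq2 and the likelihood ratio test also gave 3, and none was called by those tools. In edgeR's quasi-likelihood test these 3 were Ghsr at 0.36 ± 0.12, Mchr1 at 0.28 ± 0.10 and Hcrtr2 at -0.46 ± 0.18, whose adjusted p were 0.109, 0.136 and 0.153. Without the libraries that held cortical markers Hcrtr2 (-0.76, adjusted p = 0.00392) and Mchr1 (0.42, 0.006) were called, where 23.8% of all genes were. Ghsr stood at 0.23 (0.221) in that fit. Without only the 1% protein library among those with cortical markers, Hcrtr2 had -0.69 (0.00603) and Mchr1 0.35 (0.0168), where 25.1% of all genes were called. Both fits left only the 3 libraries of low mitochondrial share at 1% protein. Between 5% and 20% protein 0 of 10 passed (0.03% of all genes), with 1 at an unadjusted p under 0.05 by each of the 3 tools. In edgeR's quasi-likelihood test this was Ghsr, where 3.01% of all genes had such a p. Between 2.5% and 20% protein 0 of 10 passed (0.00601% of all genes). Here 1, Npy2r, had an unadjusted p under 0.05 by edgeR's quasi-likelihood test (4.81% of all genes) and by DESeq2, and 2 did by the likelihood ratio test. In that last comparison Npy2r and Mc4r were 2 receptors whose libraries at 2.5% all lay below those at 20%, as 2.28% of all genes did. Npy1r did so between 5% and 20% (1.35% of all genes).

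Across the whole range of protein, no receptor passed for the slope by edgeR's quasi-likelihood test, where 0.018% of all genes did. Of the 10, 1 had an unadjusted p under 0.05 (14.6% of all genes), Npy2r, which was also the 1 receptor called by DESeq2 and by the likelihood ratio test. Hcrtr2 had a slope of -0.31 ± 0.18 and Mchr1 of 0.15 ± 0.11. No receptor passed for the interaction of protein with fat, and no gene did (0.0%) by edgeR's quasi-likelihood test. By that test 0 of 10 had an unadjusted p under 0.05, where 2.84% of all genes did. DESeq2 and the likelihood ratio test also gave 0 of 10.

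Fat level called no receptor. Comparing 60% with 20% fat, 0 of 10 passed edgeR's quasi-likelihood test, DESeq2 or the likelihood ratio test, and 0.00601% of all genes passed the first. Each tool gave 1 receptor with an unadjusted p under 0.05. In edgeR's quasi-likelihood test it was Ghsr, where 7.79% of all genes had such a p. Ghsr ran from 5.09 to 7.43 CPM at 60% fat with a median of 5.61, and from 4.89 to 9.82 at 20% fat with a median of 6.77. These ranges overlapped, and the change was log2 -0.23 ± 0.09 with an adjusted p of 0.628.

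Within each fat level, Npy2r and Hcrtr2 had the same direction between 1% and 20% protein, with 2 libraries against 2. At 60% fat Npy2r had log2 -0.50 ± 0.14 (adjusted p = 0.0528) and Hcrtr2 -0.61 ± 0.26 (0.14). At 20% fat they had -0.31 ± 0.14 (0.292) and -0.52 ± 0.25 (0.34). The value of Hcrtr2 at 20% fat rested on the pair of libraries at 1% protein: it was -0.998 and passed (adjusted p = 0.0482) without replicate 2, and -0.17 (0.812) without replicate 1. With all 16 libraries no receptor passed edgeR's quasi-likelihood test at either fat level, where 4.25% of all genes did at 60% fat and 1.78% at 20%. At 60% fat 3 of 10 had an unadjusted p under 0.05 (28.2% of all genes), and Npy2r was called by DESeq2 and by the likelihood ratio test. Of these 3, 1 was higher and 2 lower, also by the likelihood ratio test, while DESeq2 gave 0 and 2. At 20% fat 1 of 10 had such a p (15.4% of all genes), 0 by DESeq2 and 2 by the likelihood ratio test, with none called. The differences between fat levels were -0.19 ± 0.19 for Npy2r and -0.10 ± 0.36 for Hcrtr2 and did not pass.

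Other genes around these receptors were taken from lists of accessory proteins, further family members, G protein coupling and other peptide receptors of feeding. Of 109 genes, 91 were tested, and between 1% and 20% protein 7 rose and 9 fell, beside the 8.26% and 6.01% of all genes. Among peptide receptors, 7 of 40 fell. They were Trhr, the thyrotropin-releasing hormone receptor (-0.87 ± 0.21), Oprm1, the mu opioid receptor (-0.51 ± 0.13), Brs3 (-0.47 ± 0.14), Tacr3, the neurokinin B receptor (-0.41 ± 0.12), Cckar, the cholecystokinin A receptor (-0.39 ± 0.12), Calcr, the calcitonin receptor (-0.38 ± 0.12), and Sstr1, a somatostatin receptor (-0.32 ± 0.08). Oprm1 overlaps 2 coding genes, and its count is uncertain to that extent.

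Those that rose among peptide receptors were Ramp3, a partner of the calcitonin receptor (0.75 ± 0.21), Gipr (0.48 ± 0.12) and Ntrk2, the receptor for BDNF (0.14 ± 0.04). Sim1, a transcription factor of paraventricular neurons, fell by 0.67 ± 0.21, and Mgrn1, a ubiquitin ligase, rose by 0.17 ± 0.04. Of 7 markers of the paraventricular and supraoptic nuclei, Sim1 and Avp (-0.58 ± 0.19) fell and Crh (0.33 ± 0.10) rose, with a list median of log2 0.02. Without the libraries that held cortical markers 3 were higher and 2 lower, and with the length trend removed 0 and 2. Of 14 serotonin genes 1 passed, the receptor Htr1b (-0.46 ± 0.13), and of 25 coupling genes 3 rose, the potassium channel Kcnj9 (0.31 ± 0.07), the G protein Gna11 (0.22 ± 0.06) and the kinase Grk6 (0.20 ± 0.05). All 16 of these calls were also made without the libraries that held cortical markers, and 15 with the length trend removed, where Calcr was not called. Without those libraries 34.8% of all genes passed, and of the 91 genes 13 were higher and 24 lower. Keeping a call in that fit is therefore a weak check. Between 1% and 5% protein Gipr rose (0.53 ± 0.12) and Trhr fell (-0.76 ± 0.21), and for the slope and for fat 0 of the 91 passed.

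Marker genes of some other cells moved with the same comparison, where 8.26% of all genes were higher and 6.01% lower. Thalamic markers rose in 5 of 9 (median log2 0.62), with a summed level of 1178 to 1559 CPM at 1% protein and 934 to 1096 at 20%; Ramp3 is on that list too. Markers of mural and fibroblast-like cells fell in 6 of 7 (97.1 to 123 against 151 to 167 CPM), and endothelial markers in 5 of 6 (145 to 162 against 180 to 212). With the gene length trend removed the endothelial count was 2 of 6, and that of mural and fibroblast-like cells 6 of 7. Markers of tuberomammillary histamine neurons, where Hcrtr2 is known to be strong, summed to 159 to 175 CPM at 1% protein and 183 to 198 at 20%, with 1 of 6 higher and 1 lower. None of the genes on these 4 lists was at 0 in every library, and their part in the receptor results was not tested. Of 9 pituitary markers 6 were tested and 1, Pomc, fell, with a median of log2 -1.19 and Tshb at 0 in every library. Their sums of 12.7 to 16.04 against 46.2 to 61.2 CPM were mostly Pomc itself, at 11.5 to 13.7 and 41.7 to 58.4. The pituitary hormones Gh (-2.41 ± 1.00, adjusted p = 0.113) and Prl (-2.37 ± 0.87, 0.0767) did not pass, and without the libraries that held cortical markers 3 of the 6 were lower. The part of pituitary RNA in the change of Pomc was not tested. Other lists moved less. No marker passed for cortical and hippocampal neurons (11 tested), striatum (8), ependyma and tanycytes (6), microglia (5), oligodendrocyte precursors (4) or blood (4). The same held for the ventromedial, mammillary and suprachiasmatic nuclei (6 each). Of 6 astrocyte markers 3 were higher and 1 lower, and of 7 oligodendrocyte markers 1 was lower.

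The genes whose log2 CPM ran most like each receptor's over the 16 libraries were also listed, as a description among 13174 genes with a proper symbol and a mean of at least 1 CPM. For Npy2r they were Pon3 (Pearson r 0.93), Slc5a7, the choline transporter of cholinergic neurons (0.89), and Cped1 (0.88). For Hcrtr2 they were Nus1 (0.95), Amn1 (0.94) and Cept1 (0.92), and for Mchr1 Snn (0.92), the clock gene Per1 (0.92) and Mcrs1 (0.89). Ghsr ran most like Csnk1a1 (0.845), Ctps2 (0.84) and Lpp (0.83). Without the libraries that held cortical markers, Pon3 stayed at 0.93 with Npy2r and Per1 reached 0.96 with Mchr1, over 14 libraries. Between pairs of receptors r ran from -0.65 (Hcrtr2 with Mchr1) to 0.59 (Npy2r with Hcrtr2), and Ghsr with Hcrtr1 had -0.55. All these values share the 8 diets, the library scaling and the libraries that stand apart.

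For the remaining receptors the highest r was 0.90 for Npy5r (with Cers6), 0.85 for Mc3r (Cyp2u1), 0.82 for Npy1r (Scn8a), 0.81 for Mc4r (Glis3), 0.80 for Htr2c (Pld5) and 0.77 for Hcrtr1 (Zswim5). For Npy1r it fell to 0.65 without the libraries that held cortical markers.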

How the data were processed

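RNA-seq of hypothalamus was analysed in 16 libraries, 2 for each of 8 diets, grouped by the treatment label. The authors deposited raw counts per gene for 47069 genes, together with a gene length. Per the submitters' processing notes, the tools were HISAT2 2.1.0, featureCounts (Subread 5.0 is named), SAMtools 1.2, FastQC and edgeR, and the build was GRCm38. No strand setting is stated, and a receptor's reads therefore cannot be told apart from those of a gene on the opposite strand. The deposited length equalled the annotated span, introns included, for 85.5% of 46574 identifiers matched to GENCODE M21, so counts may include intronic reads.

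Counts were filtered with filterByExpr (minimum count 10, 16646 genes left), scaled by TMM and fitted with the quasi-likelihood F test of edgeR 4.0.16 in R 4.3.3, without the replicate number. The slope followed the model of the design text (protein, fat and their interaction, dropped where its p was above 0.05). Protein as 4 levels plus fat gave the steps, and the 8 diets as groups gave the comparisons within a fat level. P-values were adjusted by Benjamini-Hochberg over all genes tested, with a prior count of 2 in log2 CPM. The SE after a log2 change is the size of that change divided by the square root of the F statistic. It thus restates the test and is no separate measure of spread. Totals of about equal depth, 17731242 to 18511818, leave counting noise of 2.22% (Htr2c) to 11.5% (Mc4r) per value. Likeness took the 3 genes with the highest Pearson r for each receptor.

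The receptors, the ligands, the lists of related genes and markers, and the alternatives were chosen with earlier results of these data known. All 10 receptors are named whatever their result, with genes of the lists where they passed. Alternatives were median-ratio scaling, DESeq2 1.42.0, the likelihood ratio test, the replicate number as a block, a minimum count of 50 or no filter, removal of a gene length trend (lowess span 0.3), the 8 diets as groups, protein on a log2 scale, a slope without interaction, a diet code term, and fits without libraries. The fits were tested on simulated counts.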

Additional observations from a re-analysis of the deposited data

Results flagged for a closer look

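Values of the receptors were examined in 60 groups of libraries for a single library far from the others, and 2 were found; chance alone marks about 1 in 20 such groups (5%). Npy1r had 24.58 CPM in replicate 2 of 20% fat with 1% protein, while the other 7 libraries at 20% fat lay between 14.75 and 18.6. That library also held the markers of cortical and hippocampal neurons described above, and their part in the value was not tested. Npy2r had 23.21 CPM in replicate 2 of 20% fat with 20% protein, while the other 3 libraries at 20% protein lay close together, between 21.51 and 21.62. Npy2r was still lower at 1% than at 20% protein without that library (log2 -0.41, adjusted p = 0.0374, edgeR's quasi-likelihood test).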

How the results depend on the processing

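Npy2r at 1% against 20% protein kept its direction and its call in all 25 alternatives run (log2 -0.4543 to -0.3872), and Ghsr at 1% against 5% kept its direction in all 25 (0.4137 to 0.5952) and its call in 20. The number of receptors lower at 1% against 20% protein, 2, was 1 with the gene length trend removed and with the 8 diets as separate groups. Without the 2 libraries with cortical markers 1 receptor was higher in that comparison, 3 were higher and 2 lower at 1% against 5%, 1 was higher and 1 lower at 1% against 2.5%, and 1 was lower at 1% against 20% within each fat level. Without those 2 libraries 34.8% of all genes passed at 1% against 20% protein, and 23.8% at 1% against 5% and at 1% against 2.5%. The libraries then left at 1% protein were the 3 of low mitochondrial share. For the slope 1 receptor was lower with DESeq2, the likelihood ratio test and protein on a log2 scale. At 60% fat 1 was lower with DESeq2, the likelihood ratio test, no filter, a minimum count of 50 and the gene length trend removed. The cause of these changes was not tested.

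Whether the replicate numbers pair the libraries was not settled. Same-numbered libraries of different diets had deviations that correlated at -0.17 to 0.339 with a median of 0.02, above 0.1 in 7 of 28 pairs. With the replicate block 1 receptor was lower at 1% against 20% protein at 60% fat, Npy2r (adjusted p = 0.0322), and no other count of receptors moved. Over all genes the replicate block moved the calls at 1% against 20% protein from 1375 higher and 1001 lower to 1607 and 1179, and those higher at 1% against 2.5% from 231 to 359.

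Some small changes that did not pass the test turned sign. With the length trend removed Mc3r was -0.0242 at 1% against 20% protein and Mchr1 -0.0146 at 5% against 20%. Without the cortical libraries Npy1r was -0.1252 at 1% against 20%, and the difference between fat levels was 0.3731 for Hcrtr2 and -0.0636 for Mchr1.

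Leaving out each library in turn gave 0 to 1 receptors higher and 1 to 2 lower at 1% against 20% protein, 0 to 3 higher and 0 to 2 lower at 1% against 5%, 0 to 2 higher and 0 to 1 lower at 1% against 2.5%, and 0 to 1 lower within each fat level. Leaving out the 1% protein library with cortical markers gave the most receptors higher in the first 3 of these comparisons. In that fit 33.0%, 22.3% and 25.1% of all genes passed in them. The call on Ghsr at 1% against 5% was lost (adjusted p 0.0507 to 0.0683, edgeR's quasi-likelihood test) without the first library of either diet with 1% protein, the first of the 60% fat, 5% protein diet, or either of the 20% fat, 5% protein diet. These fits also turned the sign of small changes at 1% against 20% protein, which ran from -0.0252 to 0.1872 for Mc3r, -0.1506 to 0.1491 for Mc4r, -0.1198 to 0.1207 for Npy1r and -0.1617 to 0.0683 for Npy5r. Against 20% protein Mchr1 ran from -0.0899 to 0.0749 at 2.5% and from -0.0198 to 0.0773 at 5%, and Hcrtr2 from -0.1554 to 0.0869 at 5%. For fat Hcrtr2 ran from -0.1277 to 0.0364, and the difference between fat levels from -0.4558 to 0.3732 for Hcrtr2 and from -0.0634 to 0.25 for Mchr1.

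Over all genes, many counts of calls moved by more than 1.5 times. The slope gave 2 higher and 1 lower with edgeR's quasi-likelihood test but 35 and 47 with DESeq2, 43 and 57 with the likelihood ratio test, and 709 and 602 with protein on a log2 scale. Without the cortical libraries 2967 genes were higher and 2922 lower at 1% against 20% protein (1375 and 1001 with all libraries), 1950 and 2074 against 5% (410 and 401), and 1983 and 2043 against 2.5% (231 and 155, and 481 and 332 with DESeq2). Leaving out each library in turn gave 439 to 2812 higher and 487 to 2804 lower at 1% against 20%, 107 to 1843 and 201 to 1955 against 5%, and 56 to 2098 and 39 to 2167 against 2.5%, where the ends of a range can come from different fits. Counting noise was 11.5% for Mc4r and between 9.07% and 9.69% for Npy5r, Mc3r, Ghsr and Hcrtr2, the receptors that depth limits most.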
